A study of Mus musculus with 8 samples.

Results

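The cells described here were Id-high cells of the mouse line SN4741 at 39C, the 10% of cells in each 39C library with the highest share of transcript counts from Id1, Id2 and Id3. Cells were kept when they had at most 15% of counts from mitochondrial genes, 200 to 6000 detected genes and at least 5000 unique molecular identifier (UMI) counts, where each UMI tags 1 captured transcript. Of 8133 cells at 39C within these limits, 813 were Id-high, which was 95, 238, 232 and 248 cells in replicates 1 to 4. They were compared within their own library with the lower 50% by the same share, 4065 cells called Id-low, and the 3255 cells between the classes were left out. The deposited matrices held 10130 cells at 39C and 19125 in the whole series.

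SN4741 was reported as a clonal line from the substantia nigra of an embryonic mouse, and is labelled wild type and as neural precursor cells. It carries a temperature-sensitive T antigen driven by the tyrosine hydroxylase promoter. The paper found its karyotype abnormal and different from cell to cell. The series has 4 libraries of cells cultured at 37C in 10% serum and 4 of cells held for 48 hours at 39C in 0.5% serum, so temperature and serum changed together and cannot be told apart. The labels do not tie the replicates to separate cultures, so the spread over libraries that p-values measure may be technical. For the contrast of cell classes, this is the spread of the difference within each library.

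ID proteins have a helix-loop-helix domain and no DNA-binding region. They pair with basic helix-loop-helix (bHLH) factors such as the E proteins and keep them off DNA, and they are known for holding progenitors in an undifferentiated state. Their genes are direct targets of bone morphogenetic protein (BMP) signalling, in which ligands bind type I and type II receptors, the receptors phosphorylate SMAD1 and SMAD5, and these enter the nucleus with SMAD4. Inhibitory SMADs and secreted BMP antagonists limit the pathway.

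Within the limits the 39C libraries held 949, 2384, 2315 and 2485 cells in replicates 1 to 4, and replicate 1 was the deepest per cell. The summed Id-high cells gave 1455851 to 2009824 UMIs per library and Id-low cells 8891063 to 14432838. No pair of libraries shared more than 5 cell barcodes. Of 7 dopaminergic markers, Th and Slc6a3 had 0 UMIs and Pitx3 1 over all 813 Id-high cells. Nr4a2 and Foxa2 were detected and called higher than in Id-low cells, although Foxa2 did not rise in replicate 1 (log2 ratio -0.02). Lmx1b and Aldh1a1 had too few counts to be tested. The summed list was at 24.0 to 37.7 CPM in Id-high cells and 13.7 to 17.4 CPM in Id-low cells.

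The values that chose the members are given as a description. The median Id-high cell drew 0.283, 0.287, 0.306 and 0.299% of its UMIs from the 3 genes in replicates 1 to 4, and the median Id-low cell 0.0690, 0.0672, 0.0669 and 0.0678%. At the threshold the lowest Id-high cell lay at 0.2441, 0.2426, 0.2433 and 0.2483%, and the highest cell outside the class at 0.2427, 0.2425, 0.2431 and 0.2477%.

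In summed Id-high cells Id1 stood at 1211, 1145, 1240 and 1217 CPM (counts per 1000000 UMIs of the summed cells), against 276, 304, 300 and 315 CPM in Id-low cells. Id2 stood at 249, 297, 316 and 310 CPM, against 91.2, 96.0, 95.4 and 90.9 CPM. Id3 stood at 1653, 1652, 1605 and 1723 CPM, against 261, 253, 261 and 250 CPM. Id3 supplied 50.8 to 53.4% of the score counts of Id-high cells, Id1 37.0 to 39.2% and Id2 8.01 to 10.0%.

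Over all cells within the limits, each of the 3 genes was higher at 39C than at 37C in every library. The 39C and 37C means were 513 ± 15.6 and 293 ± 22.3 CPM for Id1, 147 ± 6.37 and 54.8 ± 5.83 CPM for Id2, and 554 ± 11.7 and 386 ± 17.4 CPM for Id3 (SD, n = 4). Each exact permutation test over the 70 assignments of the libraries gave a two-sided p = 0.0286, the smallest it can give, and 0.0286 after adjustment over the 3 genes.

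Whether the 3 genes marked the same cells was tested by choosing the cells on a pair of them and measuring the third. The tests here and below used edgeR's quasi-likelihood method on the summed counts, with the library as a block and Benjamini-Hochberg adjustment over all genes. Each held-out gene was higher in the cells chosen without it. Ranked by Id2 and Id3, the top 10% had 856, 832, 857 and 910 CPM of Id1 and the lower 50% 378, 402, 389 and 415 CPM. Ranked by Id1 and Id3, the top 10% had 200.4, 223, 257 and 235 CPM of Id2 and the lower 50% 109, 121, 126 and 117 CPM. Ranked by Id1 and Id2, the top 10% had 1080, 967, 1026 and 1046 CPM of Id3 and the lower 50% 414, 401, 394 and 408 CPM. All 4 values of the top 10% lay above all 4 of the lower 50% for each gene. The log2 fold changes were 1.15 for Id1 (edgeR, SE 0.037, adjusted p = 8.36e-25), 0.97 for Id2 (SE 0.050, adjusted p = 2.35e-22) and 1.34 for Id3 (SE 0.041, adjusted p = 1.80e-38).

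**Figure D1:**
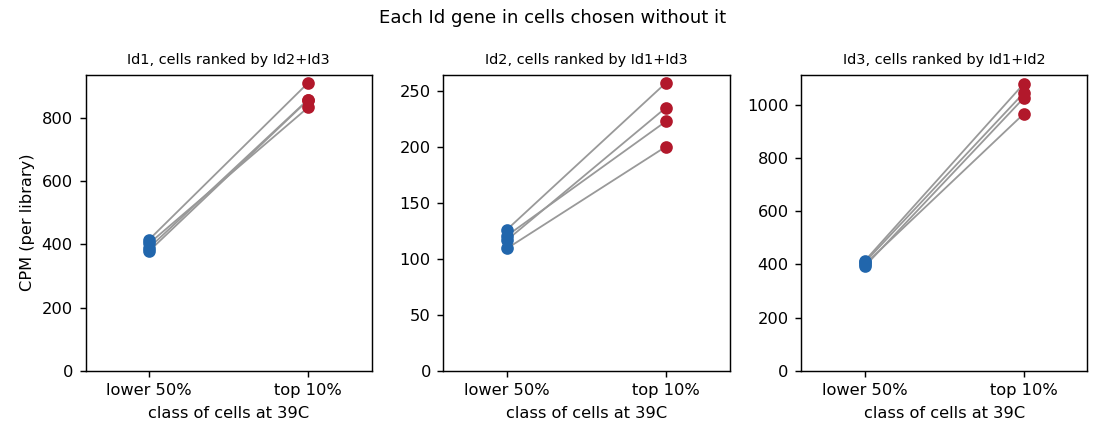
Points give the level of each Id gene in CPM in each of the 4 libraries at 39C, in the lower 50% and the top 10% of cells ranked by the other 2 genes, and grey lines join the classes of a library. In each panel the 4 points of the top 10% lie above the 4 of the lower 50%, with means of 864 and 396 CPM for Id1, 229 and 118 for Id2, and 1030 and 404 for Id3.

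A second check split the UMIs of each cell at random into 2 parts. Id-high cells chosen on one part at 0.330 ± 0.0138% held 0.274 ± 0.0146% in the other, and Id-low cells, chosen at 0.0597 ± 0.000955%, held 0.0782 ± 0.00560% there (SD, n = 4). The classes lay closer to each other in counts that had not chosen them, and Id-high cells stayed above Id-low cells in 4 of 4 libraries.

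Id4, the fourth gene of the family, was not used for the choice. It was at 68.0, 50.1, 53.7 and 40.6 CPM in Id-high cells and 15.9, 10.2, 9.91 and 9.08 CPM in Id-low cells. The classes did not overlap, and replicate 1 was highest in both. Its log2 fold change was 2.25 (edgeR, SE 0.108, adjusted p = 5.69e-19), from 2.18 to 2.31 with each replicate left out. The gene lies on chromosome 13, 48261228 to 48266026 on the plus strand of GRCm38, and annotated noncoding genes on the other strand span it. The score genes lie on chromosome 2 (Id1), chromosome 12 (Id2) and chromosome 4 (Id3).

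Id4 and Atoh8, the genes with the largest rises in the BMP target list, are shown with the 250 bases before their RefSeq start (GRCm38.p6, 5′ to 3′ on the strand of the gene). Capitals mark GGCGCC, the GC-rich sequence known to bind BMP-activated SMADs, and CAGAC or its reverse complement GTCTG, a SMAD-binding sequence. The Id4 window is chr13:48260866-48261115 on the plus strand and the Atoh8 window chr6:72235578-72235827 on the minus strand.
Id4: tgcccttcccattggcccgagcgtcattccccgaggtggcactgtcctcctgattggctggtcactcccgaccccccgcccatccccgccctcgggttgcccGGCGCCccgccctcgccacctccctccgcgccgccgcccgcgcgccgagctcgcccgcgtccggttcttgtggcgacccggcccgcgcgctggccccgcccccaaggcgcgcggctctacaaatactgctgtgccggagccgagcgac
Atoh8: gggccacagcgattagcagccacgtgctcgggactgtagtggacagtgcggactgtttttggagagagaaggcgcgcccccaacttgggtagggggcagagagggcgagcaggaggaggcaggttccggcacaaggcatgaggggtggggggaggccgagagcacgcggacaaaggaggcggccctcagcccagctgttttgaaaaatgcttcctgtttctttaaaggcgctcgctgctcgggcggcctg
The Id4 window held 1 GGCGCC, starting 148 bases before the RefSeq start, and no CAGAC or GTCTG. That start lies upstream of the gene position given above. None of these letters occurred in the Atoh8 window. Of 32851 mouse promoter windows of the same length, 9.59% held GGCGCC and 42.2% held CAGAC or GTCTG on either strand, and the matches overlapped no other marked sequence. G and C made up 75.6% of the Id4 window and 63.2% of the Atoh8 window. The share with GGCGCC among windows equally rich in G and C was not computed, so the 1 match is no result about Id4.

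Across the transcriptome, Id-high cells differed from Id-low cells in many genes. Of 11161 genes tested, with a mean of at least 10 counts over the 8 sums, 1805 were higher (16.2%) and 1899 lower (17%) at an adjusted p under 0.05, 33.2% in all. Most changes were small: 143 genes were higher (1.28%) and 216 lower (1.94%) by over 1 on the log2 scale. The classes did not overlap in 29% of tested genes, and the median log2 fold change of all genes was 0.0059.

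Id-high cells were shallower than their neighbours. Their median was 9172 ± 4201 UMIs per cell against 12162 ± 4001 in Id-low cells (SD, n = 4), a difference of -2990 ± 559 and lower in 4 of 4 libraries. The mitochondrial share was 9.03 ± 0.479% against 7.96 ± 0.345%, higher in 4 of 4. Each exact sign-flip test gave a two-sided p = 0.13, the smallest that 4 libraries allow. When cells were ranked within 5 bins of UMIs, which brought the UMI difference to -55.0, 79.4% of the called genes were called again in the same direction. With cells thinned to 5000 UMIs, which also leaves fewer counts to test, this share was 61.6%. The part of depth and mitochondrial share in the other changes was not tested.

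The largest rises and falls were taken among genes that reached 20 CPM in the higher class and went 1 way in 4 of 4 libraries. Tm4sf1, a 4-pass membrane protein of the L6 family, had 66.6, 82.4, 73.7 and 86.5 CPM in Id-high cells and 6.83, 7.28, 7.28 and 9.75 CPM in Id-low cells. Every Id-high value was far above every Id-low value, with a log2 fold change of 3.32 (edgeR, SE 0.102, adjusted p = 7.58e-25). Enpp2, which encodes autotaxin, the enzyme that makes lysophosphatidic acid, had 201.9, 187, 189 and 220.2 CPM in Id-high cells and 42.9, 31.8, 46.0 and 31.9 CPM in Id-low cells. The classes lay apart in every library, with a log2 fold change of 2.39 (edgeR, SE 0.077, adjusted p = 3.46e-24).

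Nrn1, the neurite growth protein neuritin, went from 20.2 ± 3.55 to 90.5 ± 8.81 CPM, and Rorb, a nuclear receptor, from 5.09 ± 1.24 to 23.0 ± 7.98 CPM. Nr4a1, an immediate-early nuclear receptor, went from 20.4 ± 2.60 to 84.6 ± 21.8 CPM (SD, n = 4). The other large rises described here were in Cavin4, a caveola coat protein, Col6a1, a collagen VI chain, and Aspa, which breaks down N-acetylaspartate, with log2 fold changes of 1.87 to 1.90.

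Among the largest falls, Nectin4, an adhesion molecule of cell junctions, had 18.7, 15.7, 17.1 and 15.3 CPM in Id-high cells and 69.4, 70.6, 69.0 and 78.5 CPM in Id-low cells. Krt7, a keratin of simple epithelia, had 11.1, 11.5, 25.6 and 17.1 CPM against 63.5, 55.2, 66.7 and 62.9 CPM. Evpl, which encodes envoplakin of the cornified envelope, had 2.08, 3.13, 2.01 and 1.77 CPM against 25.6, 21.4, 18.9 and 21.5 CPM. In all 3 every Id-high value was under every Id-low value, and for Krt7 replicates 1 and 2 were the lowest. Their log2 fold changes were -2.11 (edgeR, SE 0.107, adjusted p = 3.21e-18), -1.89 (SE 0.123, adjusted p = 3.12e-15) and -3.24 (SE 0.233, adjusted p = 5.85e-14).

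**Figure D2:**
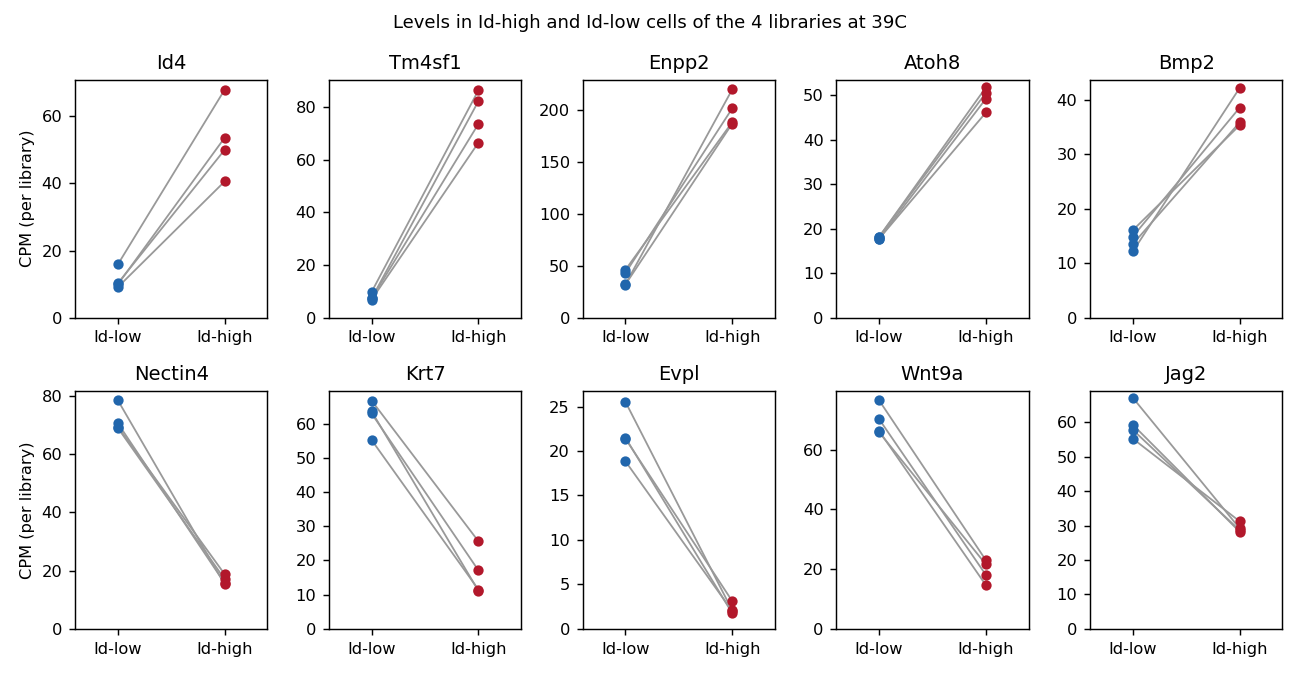
Each panel plots the level of a gene in CPM in Id-low cells (blue) and in Id-high cells (red) of the 4 libraries at 39C, with grey lines joining the classes of a library. The 5 genes of the upper row lie higher and the 5 of the lower row lower in Id-high cells in each library, from 77.3 against 7.78 CPM for Tm4sf1 to 29.3 against 59.8 CPM for Jag2 on average.

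Slc4a11, a membrane transporter, went from 70.5 ± 2.24 to 17.9 ± 3.65 CPM, and Hs3st6, a heparan sulfate sulfotransferase, from 27.8 ± 1.94 to 5.65 ± 1.96 CPM. Wnt9a, a Wnt ligand, went from 69.7 ± 4.95 to 19.3 ± 3.75 CPM (SD, n = 4). Depdc7, Cnst, the collagen V chain Col5a3 and the carboxypeptidase Cpz completed the 10 largest falls above the limit of 20 CPM, with log2 fold changes from -1.81 to -1.72.

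Levels were also followed across the deciles of cells by Id share. Tm4sf1 was at 4.35 CPM in the lowest decile, 11.1 in the fifth and 77.0 in the highest, and Enpp2 at 20.5, 54.6 and 197 CPM. Atoh8 was at 7.43, 26.1 and 49.4 CPM in the same deciles, and Id4 at 11.8, 12.1 and 52.8 CPM. Nectin4 was at 129, 47.5 and 16.7 CPM and Krt7 at 107, 44.1 and 16.3 CPM. Nectin4, Wnt9a and Evpl each fell at 9 of 9 steps between deciles and Krt7 at 8 of 9, whereas Id4 stayed between 8.60 and 15.2 CPM over the 5 lowest deciles. The genes other than Atoh8 were named for large changes between the highest decile and the 5 lowest. Their direction across deciles is therefore no separate evidence.

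**Figure D3:**
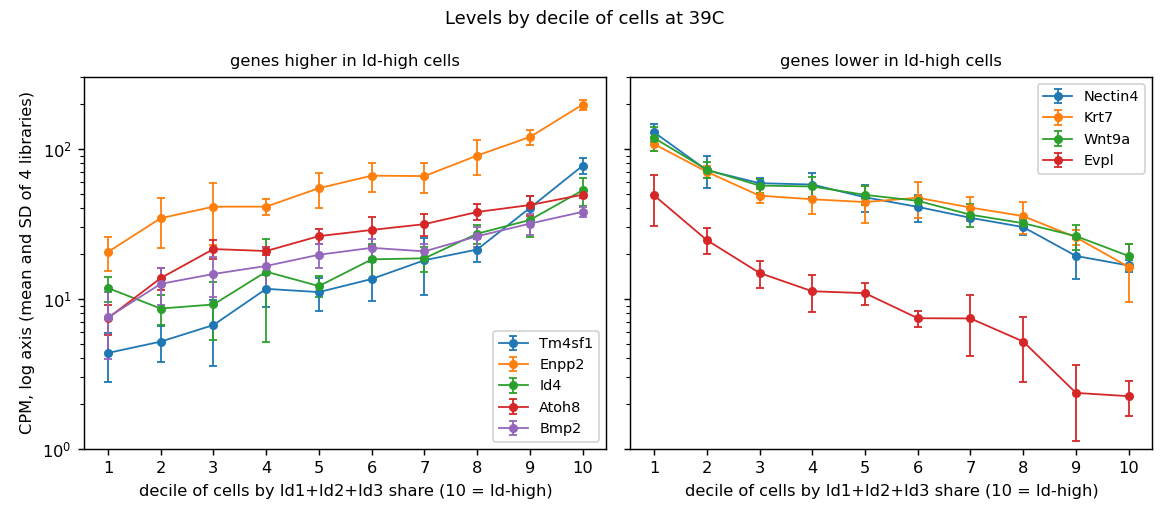
The mean level in CPM (log axis, bars give the SD of 4 libraries) is plotted against the decile of cells by Id1+Id2+Id3 share, where 10 is the Id-high class, for 5 genes that rose and 4 that fell. Tm4sf1 runs from 4.35 to 77.0 CPM and Nectin4 from 129 to 16.7 CPM between the first and the last decile.

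Of the 56 genes in 5 lists of the BMP pathway, 41 passed the filter on low counts. Of these, 19 were higher (against 16.2% of all genes), 11 lower (against 17%) and 11 not called, with a median log2 fold change of 0.30. The classes did not overlap in 29 of the 41, against 29% of all genes.

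Among ligands, 3 of 4 tested were higher and none lower (against 16.2% and 17% of all genes), with a median of 0.71. Bmp2 had 35.4, 42.2, 38.6 and 35.9 CPM in Id-high cells and 16.1, 12.2, 14.9 and 13.5 CPM in Id-low cells. Its classes lay apart, with a log2 fold change of 1.44 (edgeR, SE 0.119, adjusted p = 2.03e-12). Bmp4 had 224, 247, 234 and 216 CPM against 172, 181, 181 and 160.2 CPM, a smaller rise of 0.41 (SE 0.047, adjusted p = 7.00e-09). Gdf6, a BMP of the growth and differentiation factor group, had a log2 fold change of 0.98 and was highest in replicate 1, at 61.1 CPM. Gdf11 was at 6.64 ± 4.20 and 5.01 ± 0.429 CPM and was not called.

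The receptors went mostly the other way, with 1 of 9 tested higher and 5 lower (against 16.2% and 17% of all genes) and a median of -0.28. Bmpr2, the BMP type II receptor, had 102, 106, 102 and 101 CPM in Id-high cells and 134, 124, 119 and 126 CPM in Id-low cells, a log2 fold change of -0.29 (edgeR, SE 0.060, adjusted p = 2.71e-04). The type I receptors Bmpr1a and Acvr1 had log2 fold changes of -0.28 and -0.43, and their calls were lost under 3 and 1 of 23 alternatives. Acvrl1, a type I receptor, and Eng, a co-receptor, were at -1.60 and -0.75, Acvrl1 from 0.697 ± 0.619 CPM in Id-high cells, where replicate 2 had none. Eng was at -0.48 and not called without replicate 4. The co-receptor Rgma was higher at 0.79, at levels of 5.15 ± 1.87 and 2.92 ± 0.540 CPM, and its classes overlapped. The calls of Rgma and Acvrl1 were lost under 11 of 20 and 10 of 19 alternatives that could be fitted.

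None of the 5 SMAD signal transducers tested was higher, and 2 were lower (against 16.2% and 17% of all genes). With 5 genes, a count of none higher is no result about the list. Smad5, which carries the BMP signal, had 37.5, 35.5, 32.6 and 37.1 CPM in Id-high cells and 53.7, 50.8, 47.9 and 51.3 CPM in Id-low cells. All Id-high values were below all Id-low values, with a log2 fold change of -0.52 (edgeR, SE 0.089, adjusted p = 1.54e-05). Smad2, of the TGF-beta branch, was lower by a log2 fold change of -0.27, and its call was lost under 8 of 23 alternatives, within bins of UMIs among them (-0.19). Smad1, Smad3 and Smad4 were not called, at -0.21, -0.06 and -0.13, although Smad1, a carrier of the BMP signal, was called lower under 6 of 23 alternatives, within bins of UMIs among them (-0.23, edgeR adjusted p = 0.0357). The call of Smad5 was lost under 1, with cells thinned to 5000 UMIs.

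Of 15 inhibitors and feedback genes, 8 were higher and 3 lower (against 16.2% and 17% of all genes), with a median of 0.30. Smad6, the inhibitory SMAD of the BMP branch and a BMP target itself, had 15.3, 14.6, 17.6 and 17.7 CPM in Id-high cells and 9.91, 9.01, 10.3 and 10.2 CPM in Id-low cells. The classes did not overlap, and the log2 fold change was 0.73 (edgeR, SE 0.156, adjusted p = 3.07e-04). Smad7, the general inhibitory SMAD, rose by 0.30 from 127 ± 8.13 to 157 ± 14.8 CPM. The secreted BMP-binding proteins Nbl1, Bmper, Twsg1 and Fst had log2 fold changes of 0.70, 0.68, 0.54 and 0.38, and the SMAD co-repressor genes Skil and Tob1 0.32 and 0.28. Bmper was at 0.47 and not called without replicate 1, and its call was lost under 6 of 23 alternatives, that of Skil under 4 and that of Twsg1 under 1. Within bins of UMIs Skil was at 0.13. Ski, the ubiquitin ligase Smurf2 and the follistatin-like Fstl1 were lower at -0.34, -0.29 and -0.37, Fstl1 at -0.11 and not called within bins of UMIs. The call of Smurf2 was lost under 5 of 23 alternatives, the one without replicate 4 among them (-0.22). Noggin (Nog), Grem1, Chrd and Smurf1 were not called. Smurf1 was however called lower under 6 of 23 alternatives, within bins of UMIs among them (-0.28, edgeR adjusted p = 0.0109), and Chrd higher under 2.

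All 8 tested members of the list of BMP target transcription factors were called, 7 higher and 1 lower (against 16.2% and 17% of all genes), with a median of 0.89. The 7 include Id4, described above, which belongs to the family of the score genes and encodes no DNA-binding factor. Atoh8, a bHLH factor, had 49.3, 50.6, 46.2 and 51.8 CPM in Id-high cells and 17.7, 18.2, 17.7 and 18.1 CPM in Id-low cells. The spread within each class was small beside the gap, and the log2 fold change was 1.46 (edgeR, SE 0.099, adjusted p = 1.13e-14). Snai2, a mesenchymal repressor, rose from 21.7 ± 2.69 to 45.0 ± 4.98 CPM, and Runx2, a factor of bone formation, from 27.1 ± 1.95 to 45.0 ± 2.47 CPM. Hes1, Msx1 and Gata2 had log2 fold changes of 0.40, 0.52 and 1.09, and lost their calls under 1 of 23, 10 of 23 and 3 of 19 alternatives. The rise of Gata2 was largest in replicate 2, with log2 ratios of 0.54, 2.06, 0.21 and 0.52 in replicates 1 to 4, and without that library it was at 0.43 and not called. Msx1 was not called without replicate 2 or without replicate 3, at 0.38 and 0.47. Msx2, a homeobox repressor, was the 1 lower member, with 1.39, 2.61, 0.502 and 1.18 CPM in Id-high cells and 7.60, 6.38, 6.45 and 5.55 CPM in Id-low cells (log2 fold change -2.17, SE 0.368, edgeR adjusted p = 1.08e-05).

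**Figure D4:**
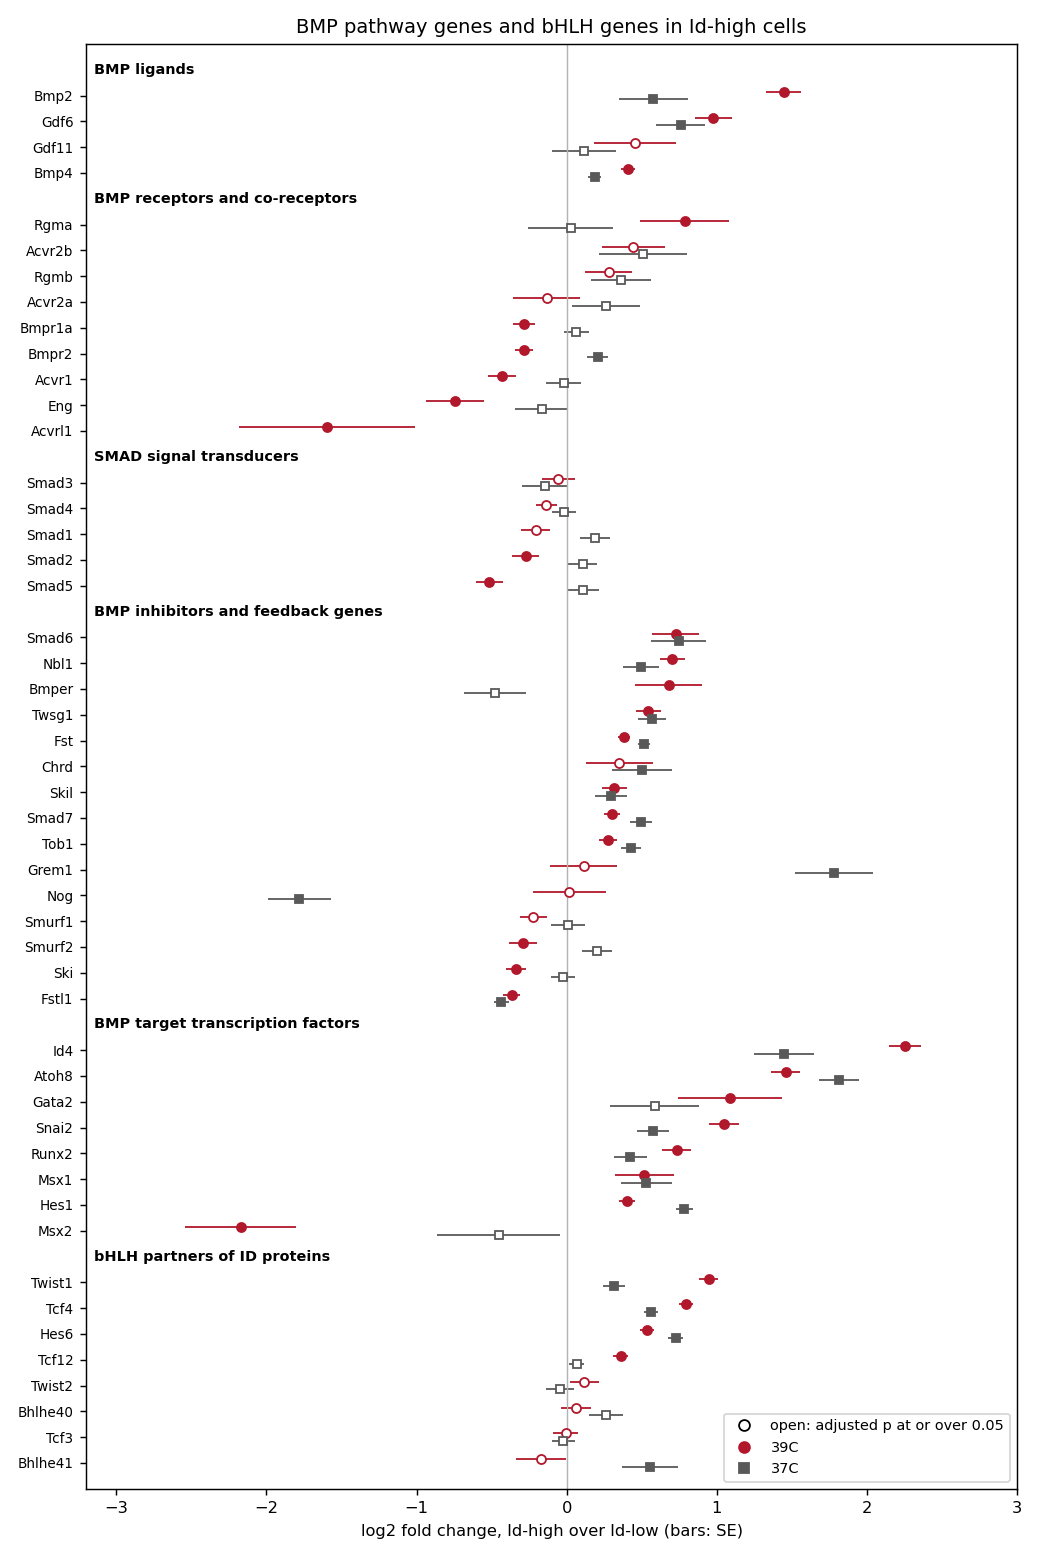
Points give the log2 fold change of Id-high cells over Id-low cells with its SE for each tested member of 5 BMP pathway lists and of the bHLH list, at 39C (red circles) and 37C (grey squares), with open symbols at an adjusted p of 0.05 or over. At 39C the members of the target list run from 2.25 for Id4 to -2.17 for Msx2, the ligands lie above 0, and the called receptors lie below 0 apart from Rgma.

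Of 20 bHLH genes listed as possible partners of ID proteins, 8 passed the filter on low counts, of which 4 were higher and none lower (against 16.2% and 17% of all genes). Twist1, a mesenchymal bHLH factor, had 132.5, 148, 131 and 130.1 CPM in Id-high cells and 73.6, 72.2, 73.0 and 62.9 CPM in Id-low cells. Tcf4, an E protein, had 366, 363, 401 and 356 CPM against 232, 208, 218 and 201 CPM. Both were apart in all libraries, with log2 fold changes of 0.94 (edgeR, SE 0.062, adjusted p = 5.21e-15) and 0.79 (SE 0.044, adjusted p = 4.40e-17). The E protein Tcf12 rose by 0.36 and Hes6 by 0.53, whereas Tcf3, the gene of E12 and E47, was at -0.01 and not called. The other 12 listed genes, the proneural factors among them, were below the filter.

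Over all tested genes 16.2% were higher and 17% lower, and the counts of the other lists are to be read against these shares. Of 8 Notch pathway genes, 1 was higher and 3 lower. Notch1, a receptor, had 369, 350.5, 350 and 372 CPM in Id-high cells and 483, 499, 515 and 520.0 CPM in Id-low cells, with no overlap (log2 fold change -0.49, SE 0.042, edgeR adjusted p = 5.06e-12). The ligand Jag2 went from 59.8 ± 5.11 to 29.3 ± 1.35 CPM. Of 14 genes of the TGF-beta list 3 were higher and 3 lower. Its members included Tgfb1 at 0.49, Cyr61 at 0.59 and Pmepa1, a feedback inhibitor, at -0.62.

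Of 7 cell cycle inhibitors 5 were higher and 1 lower, against 16.2% and 17% of all genes. Cdkn1b, which encodes p27, went from 55.1 ± 3.75 to 93.4 ± 17.0 CPM, and Cdkn2a from 923 ± 46.9 to 1251 ± 48.0 CPM. Of 18 p53 targets, 2 were higher and 11 lower, with a median of -0.22. Trp53inp1 and Ccng1 fell by 0.49 and 0.35 on the log2 scale, while Gdf15, a secreted stress factor, rose by 0.86. Of 42 S phase genes 7 were higher and 5 lower, and of 51 G2M genes 6 were higher and 12 lower, against the same shares of all genes.

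The share of cells assigned to G2M was 2.81 ± 2.04% in Id-high cells and 4.47 ± 1.31% in Id-low cells (SD, n = 4), lower in 4 of 4 libraries (exact sign-flip p = 0.13). The difference of -1.67 points was -0.89 within bins of UMIs and -0.68 with cells up to 10% mitochondrial share, each lower in 3 of 4. The G1 share was 87.5 ± 3.90% against 84.2 ± 1.30%, higher in 3 of 4 (exact p = 0.25). That direction turned to -5.20 points when phases were scored in each library by itself and to -0.31 points with cells up to 10% mitochondrial share. In G1 cells alone, 88.2% of the called genes were called again in the same direction.

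Of 25 immediate-early genes, which respond within minutes to stimulation, 11 were higher and 3 lower, against 16.2% and 17% of all genes. Ier2 had a log2 fold change of 0.81 and Fosl1, a Fos family member, of -1.14. Among 10 hypoxia and glycolysis genes 6 were higher and none lower, with Ldha at 0.43 and Ankrd37 at 1.38. Of 12 heat shock genes 4 were higher and 4 lower, where Hspb1 went from 18.4 ± 2.32 to 49.8 ± 6.80 CPM and Cryab, also a small heat shock protein gene, from 671 ± 65.5 to 411 ± 28.9 CPM.

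Of 15 collagen and matrix genes 7 were higher and 4 lower, against 16.2% and 17% of all genes. Mgp, matrix Gla protein and an extracellular BMP inhibitor, went from 61.5 ± 6.60 to 131 ± 19.9 CPM, and Fn1, fibronectin, from 222 ± 13.3 to 372 ± 45.7 CPM. Of 12 contractile genes 3 were higher and 5 lower. Tagln fell by 2.78 on the log2 scale, and within bins of UMIs its value was 0.04.

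Of 8 tested neuronal genes 1 was higher and 5 lower (against 16.2% and 17% of all genes), with a median of -0.62. Celf5, a neuronal RNA-binding protein gene, had 142, 135, 127 and 145 CPM in Id-high cells and 197, 203, 192 and 212 CPM in Id-low cells, with no overlap (log2 fold change -0.55, SE 0.053, edgeR adjusted p = 8.70e-11). Stmn2 was at -1.04, with log2 ratios of 0.53, -1.61, -1.87 and -1.06 in replicates 1 to 4. Within bins of UMIs Stmn2 was at 0.09 and not called. Among progenitor genes 3 of 8 were higher and 3 lower. Sox2 went from 66.6 ± 3.17 to 112 ± 10.9 CPM and Nes, nestin, from 125 ± 8.40 to 65.9 ± 9.80 CPM.

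Of 18 cholesterol synthesis genes 3 were higher and 2 lower, and of 12 ATF4 response genes 2 were higher and 3 lower, against 16.2% and 17% of all genes. Of 81 ribosomal protein genes 12 were higher and 35 lower, with a median of -0.07, and 12 of 13 mitochondrially encoded genes were higher. Malat1, a nuclear long noncoding RNA, was higher by 0.31 and was the 1 higher member of 3 such RNAs tested.

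Markers of other cell types were examined as whole lists. Of 8 endothelial markers, 1 was tested, Flt1 at 0.40 (log2 ratios of 0.84, 0.05, -0.01 and 0.74 in replicates 1 to 4), and Cdh5, Kdr, Tie1, Emcn and Cldn5 had 0 UMIs in Id-high cells. The summed endothelial list was at 19.97 to 33.5 CPM in Id-high cells and 18.8 to 21.99 CPM in Id-low cells. The call of Flt1 was lost under 6 of 23 alternatives, among them those without replicate 1 or 4 (0.27 each). Of 7 pericyte markers, 3 were tested, none was higher and 2 were lower, Des at -0.89 and Cspg4 at -0.41, with Rgs5, Kcnj8 and Abcc9 at 0 UMIs and summed levels of 89.3 to 110.2 and 107 to 113 CPM. Their calls were lost under 7 and 9 of 23 alternatives, for Des without replicate 1 (-0.63) and for Cspg4 without replicate 3 (-0.27) among them.

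Of 10 glial markers, 3 were tested and 2 were higher, Slc1a3 among them, and the summed list was at 27.5 to 33.1 CPM in Id-high cells and 16.9 to 20.8 CPM in Id-low cells. Gfap, Aqp4 and Sox10 had 0 UMIs in Id-high cells. The 1 tested immune marker of 6, Cd68, was lower at -0.40, with log2 ratios of -1.44, -0.32, 0.37 and -0.69 in replicates 1 to 4. Its call was lost under 10 of 23 alternatives, without replicate 1, 2 or 4 among them, and its value ran from -0.76 to -0.15 with each replicate left out, lowest without replicate 3 and highest without replicate 1. Ptprc had 0 UMIs, and the list was at 17.9 to 35.9 and 28.1 to 45.2 CPM. The part of these markers in the other changes was not tested. Of 7 dopaminergic markers, 2 were tested and higher. Nr4a2 had 11.1, 14.1, 5.52 and 16.5 CPM in Id-high cells and 3.19, 2.78, 2.15 and 2.69 CPM in Id-low cells (log2 fold change 2.11, SE 0.240, edgeR adjusted p = 5.04e-09). Foxa2 was at 0.67, with log2 ratios of -0.02, 0.74, 0.74 and 1.02 in replicates 1 to 4, and its call was lost under 3 of 23 alternatives.

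Id-high cells overlapped other classes cut as the top 10% of each 39C library by a gene or list. Of Id-high cells, 25.8 ± 2.62% were also in the top 10% by Enpp2, against 5.32 ± 0.403% of Id-low cells. For Malat1 the shares were 18.9 ± 2.39% and 8.13 ± 1.11%, and for immediate-early genes 14.3 ± 1.75% and 9.13 ± 0.613%. The overlap was lower with the top 10% by collagen and matrix genes, 7.05 ± 0.555% against 10.0 ± 0.533%, and by immature neuron genes, 5.28 ± 1.52% against 11.4 ± 0.324% (SD, n = 4). In each of the 5 overlaps the exact sign-flip test gave p = 0.13, the smallest possible. The summed collagen and matrix list went the other way from its overlap. It was higher in Id-high cells in each library, at 7098 to 7684 CPM against 6621 to 7388 CPM in Id-low cells. Enpp2 was already among the largest rises between Id-high and Id-low cells, and Malat1 and the lists had been compared between the same cells above. None of the overlaps is therefore separate evidence. The part of the lower depth of Id-high cells in the overlaps was not tested.

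To see which changes went with a high Id share at both temperatures, the same rule was applied within each 37C library, giving 788 cells against 3940. The classes lay at lower Id shares than at 39C. The lowest 37C Id-high cell was at 0.1504 to 0.1696% by library, against 0.2426 to 0.2483% at 39C. The median 37C Id-low cell was at 0.0337 to 0.0394%, against 0.0669 to 0.0690% at 39C. At 37C 1574 of 11326 genes were higher (13.9%) and 1657 lower (14.6%), and with library totals as the only scaling 1800 were higher and 1352 lower. The median was 9539 ± 1583 UMIs per cell in the 37C Id-high class and 14926 ± 2637 in the 37C Id-low class, and the G1 share was 35.4 ± 5.87% and 18.5 ± 3.52% (SD, n = 4). The part of Id level, depth and phase in the differences between temperatures was not tested.

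The effect of the class differed between temperatures in 2629 of 11288 genes (23.3%), 1434 higher at 39C (12.7%) and 1195 lower (10.6%). With library totals as the only scaling this split was 939 and 1528. Of the 9 large rises described at 39C, all 9 were also higher at 37C, and the effect of 7 was larger at 39C. Tm4sf1 had log2 fold changes of 3.32 at 39C and 1.61 at 37C, a difference of 1.74 (edgeR, SE 0.158, adjusted p = 4.98e-13). Enpp2 was the exception with a smaller effect at 39C, 2.39 against 2.91, and Nr4a1 was at 2.06 and 2.09 with no call of a difference.

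Most of the falls were not called lower at 37C. Evpl was at -3.24 at 39C and 0.07 at 37C, a difference of -3.28 (edgeR, SE 0.383, adjusted p = 1.13e-09). Nectin4 was at -2.11 and -0.18, a difference of -1.90 (SE 0.192, adjusted p = 1.60e-11), and Krt7 at -1.89 and 0.29, a difference of -2.15 (SE 0.181, adjusted p = 3.65e-14). Wnt9a and Col5a3 were lower at 37C as well, at -0.53 and -0.52, and the other falls were not called lower there. In all 10 the difference between temperatures was called.

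**Figure D5:**
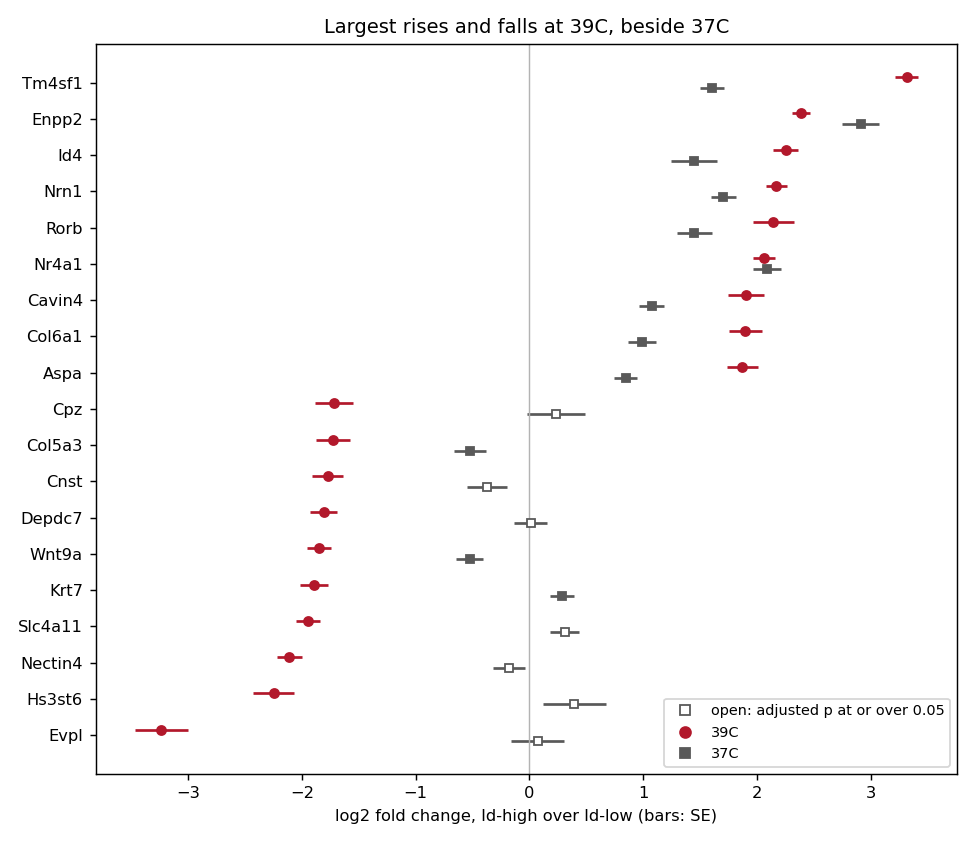
The log2 fold change of Id-high cells over Id-low cells, with its SE, is plotted for 9 large rises and the 10 largest falls at 39C (red circles) beside the same genes at 37C (grey squares, open where the adjusted p was 0.05 or over). The rises lie above 0 at both temperatures, whereas Evpl, at -3.24 and 0.07, and most other falls lie near 0 or above it at 37C.

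Of 40 BMP pathway genes tested for a difference between temperatures, 15 were called, against 23.3% of all genes. Atoh8, Smad6 and Twsg1 were higher in the Id-high class at both temperatures with no call of a difference, with log2 fold changes at 37C of 1.81, 0.75 and 0.57. Id4 (difference 0.84), Bmp2 (0.90) and Snai2 (0.50) had larger effects at 39C. Smad5 and Bmpr1a, lower at 39C, were not called at 37C, and Bmpr2 was higher there at 0.21. Their differences were -0.60, -0.31 and -0.46 (edgeR adjusted p = 9.81e-04, 0.0283 and 7.82e-05). Grem1 and Nog, both secreted BMP antagonists, were called at 37C in opposite directions, at 1.78 and -1.78, and were at 0.11 and 0.02 at 39C.

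Notch1, Jag2 and Notch3 turned direction between temperatures, from 0.47, 0.40 and 0.41 at 37C to -0.49, -1.02 and -0.36 at 39C. The differences were -0.93, -1.40 and -0.73 (edgeR adjusted p = 3.10e-18, 1.19e-08 and 1.20e-06). Fn1 turned the other way, from -0.65 at 37C to 0.75 at 39C. Of the p53 targets 10 of 18 were higher and 1 lower at 37C (against 13.9% and 14.6% of all genes), beside 2 and 11 at 39C, and the difference was called lower at 39C in 11 (against 10.6%). The other large differences by the naming rule were those of the imprinted gene Peg10, at 1.57 and -0.27, and Sprr1a, a small proline-rich protein gene, at -0.00 and -1.79. At 39C the libraries disagreed in direction for Sprr1a, with log2 ratios of 1.99, 0.97, -1.42 and -1.14 in replicates 1 to 4.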

How the data were processed

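Droplet libraries, 4 of cells at 37C and 4 at 39C, came from Chromium 3′ V3 chemistry. Reads were aligned by the authors to mm10 in Cell Ranger 3.0.1, and the authors deposited raw UMI counts per gene and cell for 31053 genes, with no normalization. Cell limits, scores and classes were as given in the report. Counts of each class were summed per library, leaving out Id1, Id2 and Id3, and tested in edgeR 4.0.16 (R 4.3.3) with TMM factors and the library as a block. CPM values use totals scaled by these factors, apart from those of Id1, Id2 and Id3, which use plain totals. Both classes came from the same library by construction, and replicate numbers did not pair libraries across temperatures. SEs are the log2 fold change over the square root of F. The members, lists and tests were chosen with earlier results of these data known. The genes named were the 10 largest rises and falls that were called, went 1 way in 4 of 4 libraries and reached 20 CPM in the higher class (leaving out ribosomal, mitochondrial, Gm and Rik genes), up to 3 called members of each of 29 lists, the tested BMP and bHLH list members, Id1 to Id4, and the 3 largest differences between temperatures each way. Of the genes this rule names, 2 are not reported here, and no other gene took their place. Phases came from Seurat 5.3.0 and doublet scores from Scrublet in scanpy 1.11.5, where 1 cell passed a score of 0.5, so doublets were not removed in the reported fits. Sequences were RefSeq promoter windows of GRCm38.p6, and positions were from GENCODE M21, which matched 30934 of 31053 genes. The fitting script was tested on simulated data. Alternatives covered scaling, filters, DESeq2 1.42.0, the block, UMI thinning, UMI bins, split UMIs, class limits, G1 cells and each replicate left out. Transcripts of the T antigen were not analysed here.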

Additional observations from a re-analysis of the deposited data

Results flagged for a closer look

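In 10 of 123 named genes tested at 39C, 1 library lay apart from the other 3 in the log2 ratio of Id-high cells over Id-low cells, judged by the gap to the nearest library as a part of the range, where chance gives about 1 group in 20. Replicate 3 lay apart for Rorb (1.33), Smad7 (0.45) and Cyr61 (0.47). Replicate 4 lay apart for Eng (-1.79), Fstl1 (-0.47), Bhlhe41 (0.29) and Psat1 (0.74). Replicate 1 lay apart for Tcf12 (0.45) and Cryab (-0.35), and replicate 2 for Col5a3 (-2.08).

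The effect of the class differed between temperatures, by the interaction term in edgeR, in 20 of 21 named rises, falls and differences. The difference, 39C minus 37C on the log2 scale, was above 0 for Tm4sf1 (1.74), Id4 (0.84), Nrn1 (0.50), Rorb (0.73), Cavin4 (0.86), Col6a1 (0.94), Aspa (1.06), Peg10 (1.87) and Sprr1a (1.81). It was below 0 for Enpp2 (-0.49), Evpl (-3.28), Hs3st6 (-2.61), Nectin4 (-1.90), Slc4a11 (-2.23), Krt7 (-2.15), Wnt9a (-1.29), Depdc7 (-1.79), Cnst (-1.37), Col5a3 (-1.18) and Cpz (-1.92). The genes were named for their size at 39C or for this difference, so the share of 20 in 21 is no independent evidence.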

How the results depend on the processing

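Of 106 named genes called at 39C, 77 kept their call and direction under every alternative that could be fitted, 28 lost the call under at least 1, and 3 turned direction under at least 1. The counts of called genes moved by over 1.5 times with DESeq2 (970 higher and 1096 lower at 39C), with cells thinned to 5000 UMIs (1189 higher at 39C, 740 higher and 805 lower at 37C, and 1487 differences between temperatures), and with cells chosen and tested on separate UMIs (1236 lower at 39C). Of the reported 39C calls, 55.8% were made again in the same direction with DESeq2, 61.6% with thinning and 60.1% on separate UMIs. Thinning and splitting leave fewer counts to test, whereas DESeq2 was given the same counts. The cause of these moves was not tested.

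Without the library as a replicate block, 1513 genes were higher and 1576 lower at 39C, 1231 and 1204 at 37C, and 1911 differed between temperatures, and 83.4% of the reported 39C calls were made again in the same direction. The values of Id1, Id2, Id3 and Id4 without the block were 1.15, 0.97, 1.34 and 2.26. With each replicate left out, 1339 to 1662 genes were higher and 1488 to 1847 lower at 39C, 1173 to 1280 and 1323 to 1449 at 37C, and 2096 to 2415 differed between temperatures.

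The UMI difference was -55.0 within bins of UMIs and -3602.5 with the top 5% as members. The difference in mitochondrial share was 0.639 points within bins of UMIs and 0.711 with cells up to 10%. The G1 difference was -0.31 points with cells up to 10% mitochondrial share and -5.20 with phases scored by library.

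Among called genes, Tagln was at 0.042 and Stmn2 at 0.091 within bins of UMIs, and Fstl1 at 0.065 against the lowest 10%. The other turns of direction were of genes that were not called. Sprr1a was at 0.00066 with RLE factors, 0.017 with upper-quartile factors, 0.11 with DESeq2, 0.79 on separate UMIs, 0.74 with the top 20%, 0.061 with cells up to 10% mitochondrial share, 0.40 with equal cell numbers, and -0.47 to 0.64 with each replicate left out. Tcf3 was at 0.0096 with upper-quartile factors, 0.18 on separate UMIs, 0.022 against the lowest 10%, 0.021 with the top 5%, 0.014 with at least 2000 UMIs, 0.026 in G1 cells, and -0.041 to 0.029 with each replicate left out. Grem1 was at -0.17 with DESeq2, -0.16 within bins of UMIs, -0.11 with the top 5%, -0.21 with the top 20%, -0.15 with equal cell numbers, and -0.57 to 0.42 with each replicate left out. Nog was at -0.020 with no filter on low counts, -0.059 against all other cells, -0.22 with the top 5%, -0.056 without the highest Scrublet scores, -0.013 in G1 cells, and -0.19 to 0.12 with each replicate left out. Acvr2a was at 0.046 against the lowest 10%, 0.13 with equal cell numbers, and -0.30 to 0.0018 with each replicate left out. Twist2 was at -0.020 with cells up to 10% mitochondrial share and Bhlhe40 at -0.020 against all other cells.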
